A study of Mus musculus with 6 samples.

Results

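Collagens, laminins and the integrins that bind them were examined gene by gene in NIH3T3, a long-established fibroblast line of the mouse. Members were chosen by the form of the gene symbol alone: those of collagen, laminin and integrin chains among the 24062 genes counted, which gave 85 genes. They were 44 collagen genes, 11 laminin genes and 27 integrin chain genes. The symbol pattern also took in 3 genes of integrin-binding proteins (Itgb1bp1, Itgb1bp2 and Itgb3bp), which are not integrin chains. The 58 members with a summed count of 60 or more over all libraries were compared between groups. All 58 were among the 13185 genes that passed the filter on low counts.

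The study combined loss of the transcription elongation factor SPT6 (gene Supt6) with interferon beta (IFN-beta). Cells were transfected for 48 h with a negative control siRNA or with siRNA against SPT6, and 4 groups resulted: each siRNA without IFN-beta (1 library each, titled 0 h) and each siRNA with mouse IFN-beta at 100 units/ml for 4 h (2 libraries each). All 6 libraries came from transfected cells of this 1 line, and the labels do not say whether replicates were separate cultures. No library of 4 h without IFN-beta was analysed here, so an effect of IFN-beta and of the extra hours cannot be told apart.

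Collagen chains assemble in triplets into fibrils, networks or filaments, and the fibril-forming types are the main product of fibroblasts. Laminins are cross-shaped trimers of an alpha, a beta and a gamma chain and, with collagen IV, form basement membranes. Integrins are receptors made of an alpha and a beta chain. Pairs with Itgb1 bind collagens, laminins or fibronectin, pairs with Itgav bind matrix proteins that carry an RGD motif, and a further set is typical of leukocytes.

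Depth ranged from 7935961 to 17596498 gene counts per library, and the SPT6 siRNA library was the shallower in each same-numbered comparison. In untreated cells, Supt6 stood at 175 CPM (read counts scaled to a common library size) under control siRNA and 101 CPM under SPT6 siRNA. With IFN-beta it stood at 177 and 189 CPM against 108 and 88.3 CPM. Its log2 difference was -0.90 ± 0.18 (SE) with an adjusted p of 0.247 (edgeR quasi-likelihood test, Benjamini-Hochberg over all genes), so the targeted gene was itself not called in this design. The 8 fibroblast markers summed to between 4273 and 7058 CPM, led by Vim and S100a4. Markers of epithelial cells summed to at most 1.30 CPM, with Epcam and Krt5 at 0 counts. Leukocyte and macrophage markers summed to 7.95 to 11.3 CPM under control siRNA and 15.1 to 18.4 CPM under SPT6 siRNA, while Ptprc had 9 counts over all libraries and Tyrobp had 0.

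Promoter sequence is shown for the collagens with the smallest p in each direction between the siRNAs, Col11a1 and Col7a1, because the pair marks the opposite ends of the comparison. Each stretch is the 250 bases before the RefSeq start (GRCm38.p6, plus strand, at chr3:114030290-114030539 and chr9:108953336-108953585), and neither overlaps an annotated exon. Capitals mark CCAAT or its reverse complement ATTGG, and the GC box GGGCGG or its reverse complement CCGCCC.
Col11a1: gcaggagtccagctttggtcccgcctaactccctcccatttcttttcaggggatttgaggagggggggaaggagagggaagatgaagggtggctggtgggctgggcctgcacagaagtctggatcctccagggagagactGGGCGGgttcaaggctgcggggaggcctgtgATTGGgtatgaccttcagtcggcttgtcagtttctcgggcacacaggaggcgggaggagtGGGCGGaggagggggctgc
Col7a1: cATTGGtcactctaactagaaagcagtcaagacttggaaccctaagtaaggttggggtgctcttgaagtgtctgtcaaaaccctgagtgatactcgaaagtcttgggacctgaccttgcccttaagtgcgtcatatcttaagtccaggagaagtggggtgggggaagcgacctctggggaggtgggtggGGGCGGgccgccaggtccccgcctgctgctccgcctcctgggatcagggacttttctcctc
Both windows hold 1 CCAAT match on the minus strand. The Col11a1 window holds 2 GC boxes and the Col7a1 window 1. Neither holds TATAAA on either strand. Of 32851 promoter windows of that length, 33.8% held CCAAT, 32.7% the GC box and 12.4% TATAAA. RefSeq promoter entries matched 43 of the 58 compared members, and of their 46 windows 28.3%, 52.2% and 8.7% held these motifs.

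NIH3T3 cells expressed 28 of 44 collagen genes above the counting limit, 7 of 11 laminin genes and 20 of 27 integrin chains. Col9a1, Col13a1, Col26a1 and Itgb2l had no count in any library, which allows up to 3 counts in each, or 0.17 to 0.378 CPM. A further 13 collagens had 2 to 47 counts in all, among them the cartilage collagen Col2a1 (15 counts) and the kidney and lung basement membrane chains Col4a3 (35 counts) and Col4a4 (47 counts). Low laminins were Lama1, Lama3, Lamb3 and Lamc3, and low integrins were Itga2, Itgad, Itgal, Itgam, Itgax and Itgb6. The collagen-binding chain Itga2 had 33 counts, whereas its relatives Itga1, Itga10 and Itga11 were compared.

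Some compared chains had few or no counts for their usual partners. Col9a3 was compared, at 265 counts in all, while Col9a2 had 9 counts and Col9a1 had 0. Exons of the gene Tcfl5 cover 6.07% of the exonic bases of Col9a3, and their part in its counts was not tested. Itgb2, the beta chain of the leukocyte integrins, was compared, while its alpha partners Itgal, Itgam, Itgax and Itgad had 16, 9, 3 and 3 counts.

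Levels per kilobase of exon (CPM divided by the summed exon length of the gene) placed fibroblast collagens at the top. Col1a2 averaged 317 CPM per kilobase over the libraries (186 to 413), Itgb1 228 (178 to 260), Col6a1 196 (111 to 258), Col1a1 169 (118 to 237) and Col3a1 112 (50.1 to 151). Ranges of neighbours among these 5 overlapped, but they pool the 4 groups and do not compare genes within a library. On this scale Col1a1 lay above Col3a1 in every library. With the longest transcript in place of all exons, Col1a2 came to 736 CPM per kilobase and stayed first, while Col1a1 and Col3a1 traded places. Among laminins, Lamc1 led at 57.5 (52.4 to 62.5), then Lamb1 at 44.9 (35.2 to 56.1), Lamb2 at 26.4 (18.7 to 32.5) and Lama4 at 20.1 (11 to 25.3) CPM per kilobase. Neighbours overlapped here too, except Lamb1 and Lamb2. With the longest transcript the order changed: Lamb1 led at 76.9 CPM per kilobase, then Lamc1 at 62.4, Lama4 at 40.1 and Lamb2 at 28.5. Lama4 was the most abundant alpha chain, and Lama2 (1.21) and Lama5 (0.12) lay far below it on this scale. Among integrins, Itgb1 stood apart from the next chains, Itga5 at 39.6 (24.5 to 58.2) and Itgav at 30.8 (22.1 to 43.4). Ranges of Itga5, Itgav and Itgb5 overlapped.

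**Figure D1:**
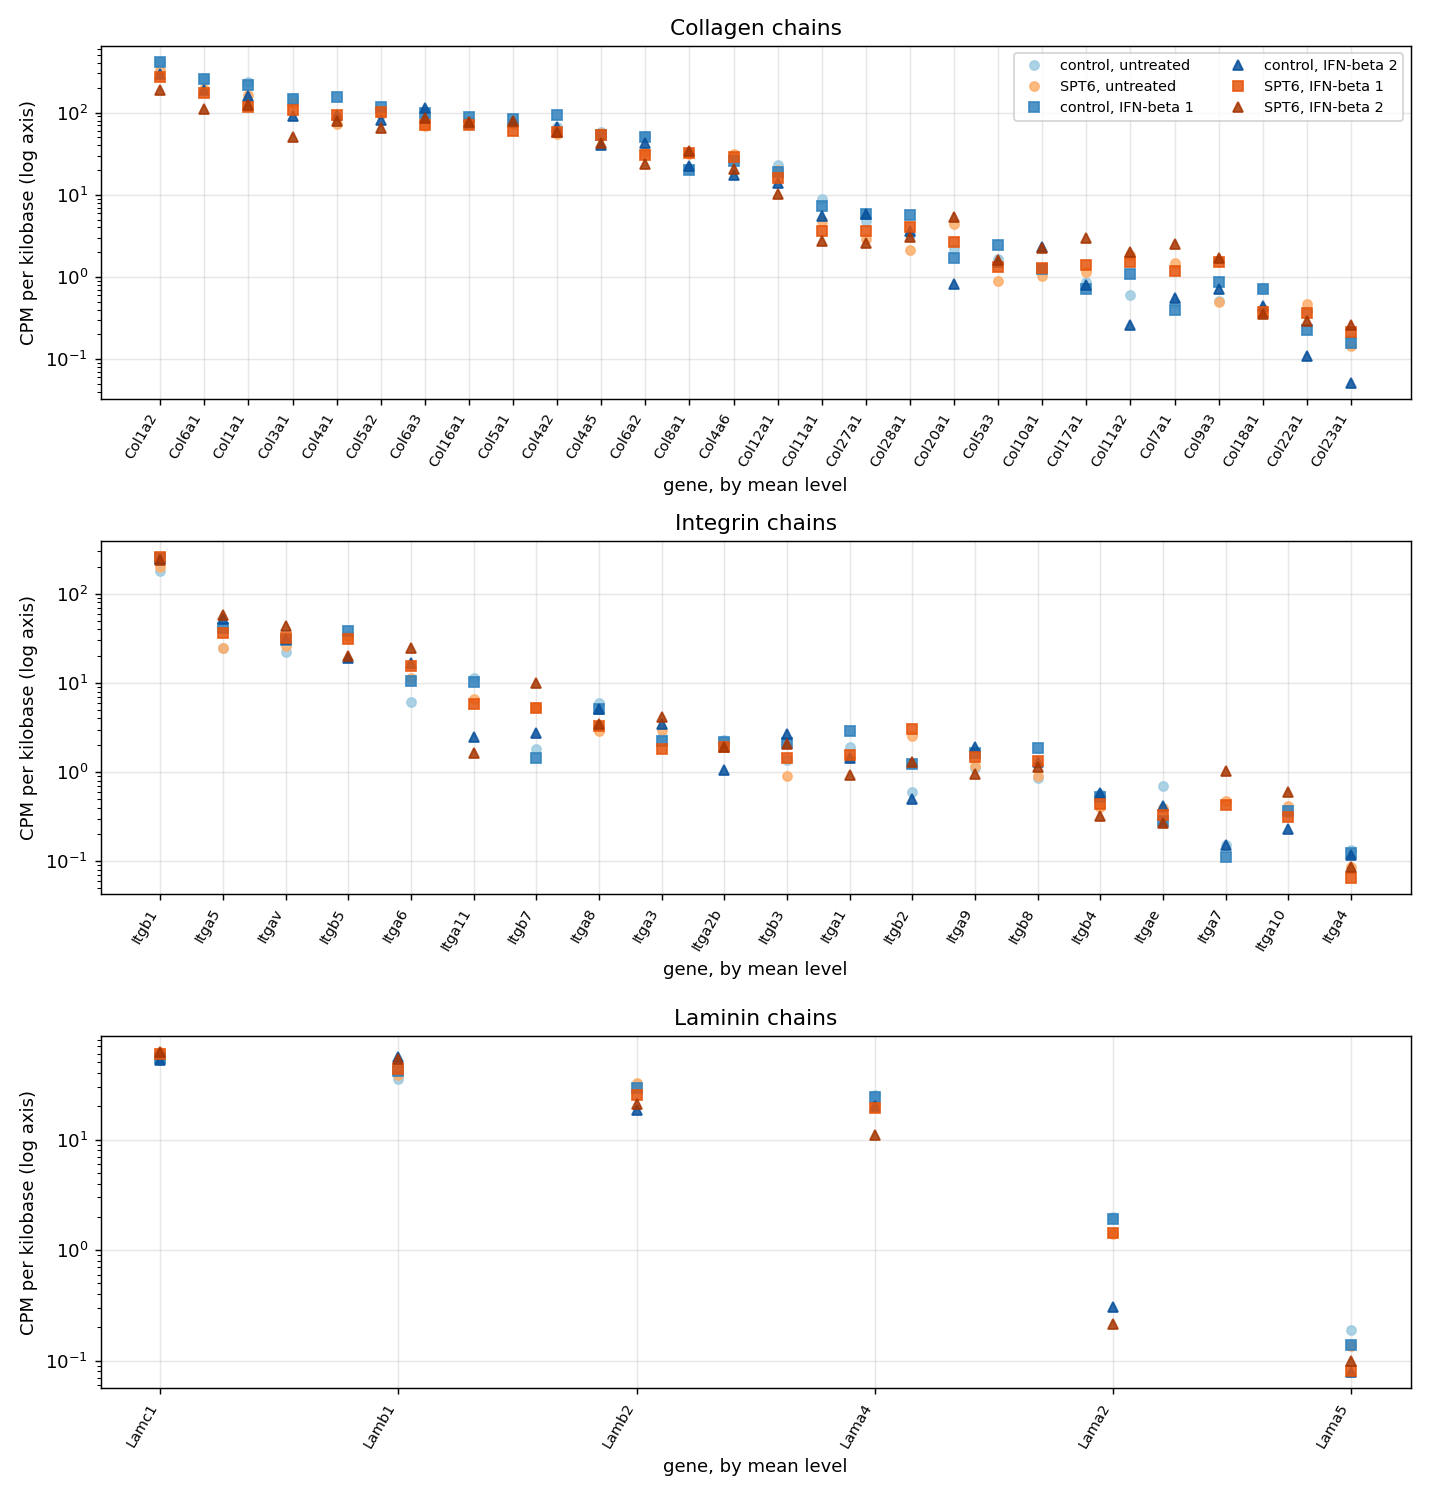
Level of compared collagen, integrin and laminin chains in each of the 6 libraries, in CPM per kilobase of exon on a log axis, ordered by mean level. Col1a2 leads the collagens at a mean of 317, Itgb1 the integrins at 228 and Lamc1 the laminins at 57.5 (Lamb1 leads them when the longest transcript sets the length), and the lowest chain of each panel lies below 1 on that scale.

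Collagen genes together took a smaller share of all gene counts with SPT6 siRNA in each same-numbered comparison. Such a share is set mainly by the most abundant chains. Between the siRNAs with IFN-beta, 11 of 28 compared collagens lay above 0, against 6327 of 13185 genes tested. In untreated cells they took 1.56% under control siRNA and 1.34% under SPT6 siRNA. With IFN-beta they took 1.54% and 1.18% against 1.12% and 0.949%, and these 2 groups did not overlap. The 2 control libraries differed from each other by more than the gap between the groups. Laminins took 0.13% to 0.145% and integrin chains 0.15% to 0.225% in all libraries.

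With IFN-beta present, SPT6 siRNA was compared with control siRNA (2 libraries against 2). No member passed the adjusted threshold of 0.05 in edgeR, as was true of all genes (0%). At an unadjusted p under 0.05, 5 of 58 members (8.62%) lay lower with SPT6 siRNA, against 4.31% of all genes tested. In the other direction 8 members (13.8%) lay higher, against 7.36% of all genes. The lower ones were Col11a1, Col27a1, Col6a2, Itga8 and Col1a1, and the higher ones included Col7a1, Itga7, Itgb7, Col17a1, Col8a1, Col20a1 and Col9a3. DESeq2 called 3 members (5.17%, against 0.44% of all genes), all higher, among them Col7a1 and Itgb7, and limma-voom called 0 (0% of all genes). The number of lower members came to 3 without replicate 1 of the control IFN-beta group, 8 without its replicate 2 and 10 without replicate 1 of the SPT6 IFN-beta group, while 6 to 11 lay higher when 1 library was left out. The median member lay at a log2 difference of -0.18, the median of all genes at -0.017. Without replicate 1 of the control IFN-beta group the members' median came to -0.032.

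Fibril-forming collagens lay mostly lower with SPT6 siRNA: 8 of 9 compared had a log2 difference below 0, against 6858 of 13185 genes tested. Their median was -0.60, beside -0.017 for all genes. Of these 9 chains, 3 lay lower at an unadjusted p under 0.05 in edgeR, against 4.31% of all genes. Col11a1 (chromosome 3, 114030540 to 114220718, plus strand, GRCm38), a minor chain that helps to start fibrils, stood at 93.5 and 70.5 CPM under control siRNA and at 46.7 and 34.9 CPM under SPT6 siRNA. The groups did not overlap, and the log2 difference was -1.01 ± 0.23 (edgeR adjusted p = 0.302). Col27a1, a fibril-forming collagen known from cartilage, stood at 75.2 and 77.0 CPM against 47.0 and 34.1 CPM. Its log2 difference was -0.91 ± 0.21 (edgeR adjusted p = 0.309), again without overlap.

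The chains of collagen I, the bulk of most fibrils, also lay lower, by less. Col1a1 (chromosome 11, 94936224 to 94953042, plus strand) stood at 1417 and 1047 CPM under control siRNA and at 775 and 815 CPM under SPT6 siRNA. Both SPT6 siRNA values lay below both control values, at a log2 difference of -0.63 ± 0.23 (edgeR adjusted p = 0.38). Without replicate 1 of the control IFN-beta group that difference was -0.38. Col1a2 stood at 5086 and 3683 CPM against 3331 and 2309 CPM, a log2 difference of -0.64 ± 0.30 without overlap (edgeR adjusted p = 0.459). That difference was -0.37 without replicate 1 of the control IFN-beta group and -0.40 without replicate 2 of the SPT6 IFN-beta group. The raw count ratio of Col1a2 to Col1a1 ranged from 2.83 to 4.30 over the libraries, and both ends came from SPT6 siRNA with IFN-beta.

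Col3a1, the partner of collagen I in soft tissue, stood at 1435 and 895 CPM against 1045 and 492 CPM, and the groups overlapped. Its log2 difference was -0.60 ± 0.41, with an unadjusted p of 0.197 in edgeR. The collagen V chains, which control fibril width, all overlapped between the groups. Col5a1 stood at 715 and 653 CPM against 503 and 679 CPM (-0.21 ± 0.22). Col5a2 stood at 1135 and 769 CPM against 965 and 625 CPM (-0.26 ± 0.30). Col5a3 stood at 16.6 and 10.3 CPM against 8.97 and 11 CPM (-0.42 ± 0.30). Col11a2 was the 1 compared fibril-forming chain above 0, at 7.45 and 1.78 CPM against 10.5 and 13.8 CPM (log2 difference 1.42 ± 0.64).

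**Figure D2:**
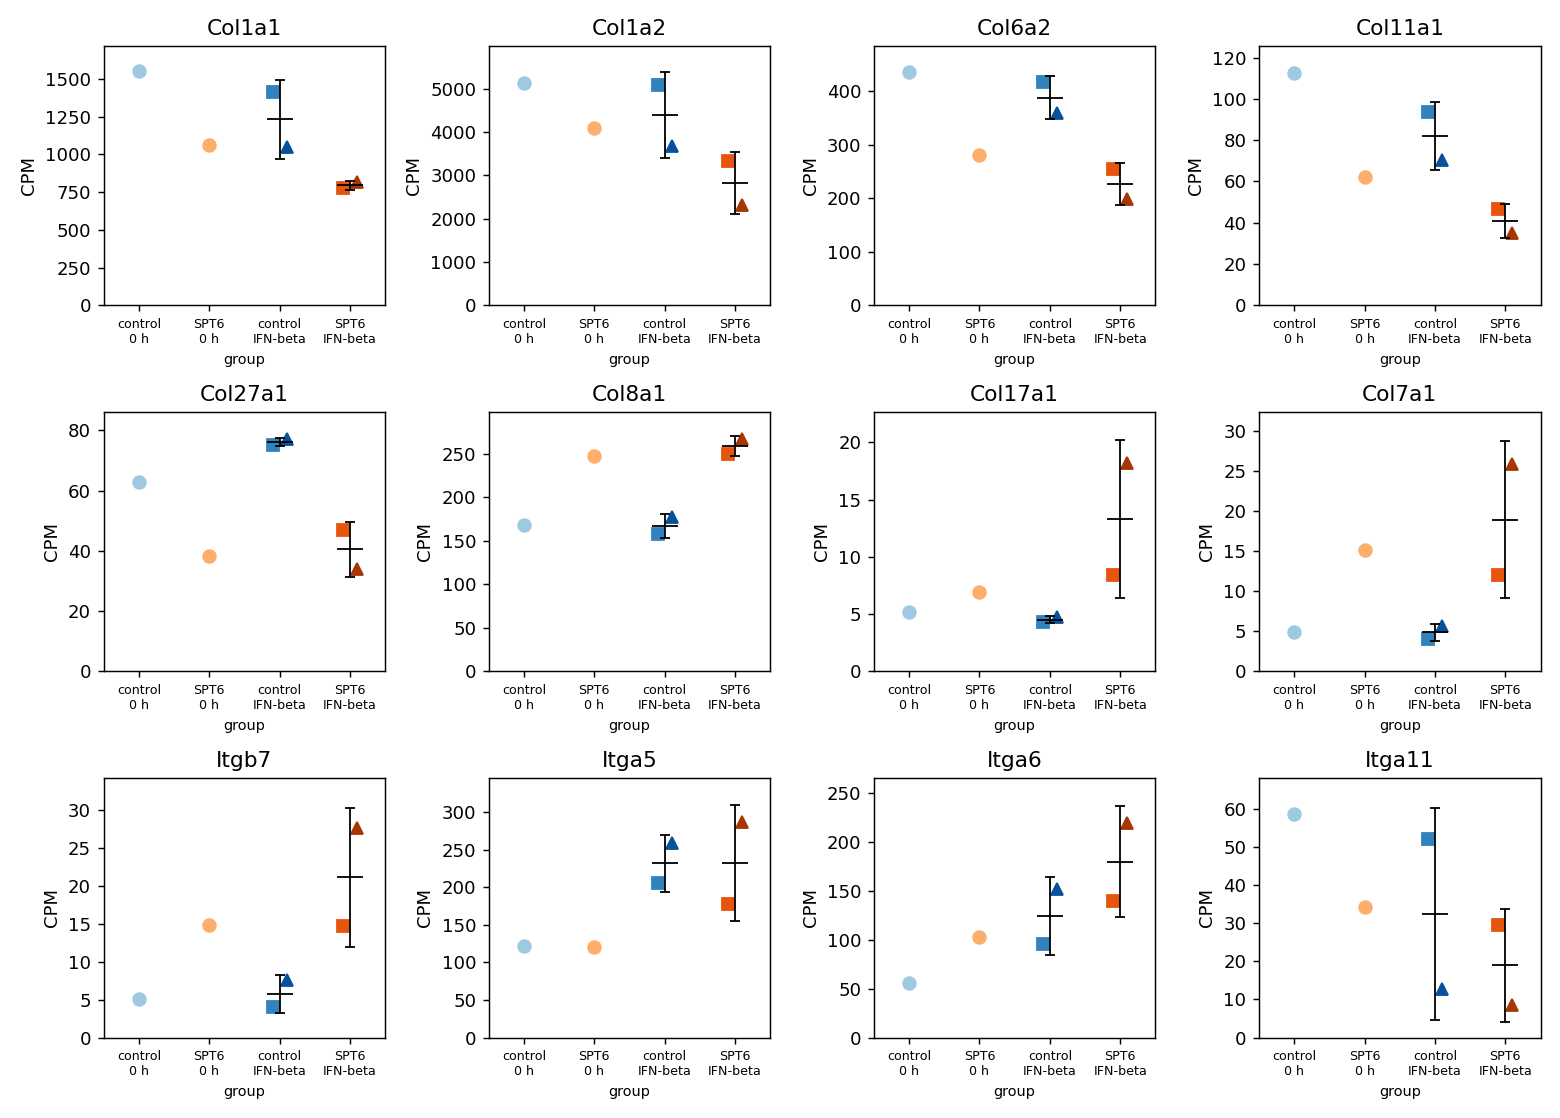
CPM of 12 members in each library, by siRNA and treatment. Points are libraries (squares replicate 1, triangles replicate 2), and bars are the mean and SD of the 2 libraries with IFN-beta. Both SPT6 siRNA libraries with IFN-beta lie below both control libraries for Col1a1, Col1a2, Col6a2, Col11a1 and Col27a1 and above them for Col8a1, Col7a1, Col17a1 and Itgb7.

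All 3 compared chains of collagen VI, which forms beaded filaments around cells, lay lower with SPT6 siRNA, at a median log2 difference of -0.65. Of all genes tested, 6858 of 13185 lay below 0. Col6a2 (chromosome 10, 76595762 to 76623630, minus strand) stood at 417 and 359 CPM under control siRNA and at 254 and 199 CPM under SPT6 siRNA, a log2 difference of -0.78 ± 0.20 (edgeR adjusted p = 0.319). Col6a1 stood at 1115 and 831 CPM against 750 and 487 CPM (-0.65 ± 0.28). Col6a3 stood at 1181 and 1368 CPM against 838 and 1029 CPM (-0.45 ± 0.21). None of these 3 chains overlapped between the groups. Both SPT6 siRNA libraries also lay below both control libraries for 21.3% of all genes tested. Col6a1 was at -0.42 without replicate 1 of the control IFN-beta group, and at -1.01 and -0.38 without replicates 1 and 2 of the SPT6 IFN-beta group. The chains of 1 filament did not keep a fixed ratio: Col6a3 counts were 0.911 to 2.12 times those of Col6a1, and with each siRNA the higher ratio was in replicate 2 of IFN-beta.

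Collagen IV forms the network of basement membranes, and no test set its chain pairs against each other. The ubiquitous Col4a1 stood at 1150 and 706 CPM against 694 and 595 CPM under SPT6 siRNA, a log2 difference of -0.52 ± 0.27. Col4a2, which starts head to head with it, stood at 626 and 437 CPM against 385 and 383 CPM, a log2 difference of -0.47 ± 0.22. Neither overlapped between groups, but the size of the difference varied with the replicate. In log2 CPM, Col4a1 lay at -0.73 in replicate 1 and -0.25 in replicate 2, and Col4a2 at -0.70 and -0.19. The other head-to-head pair, Col4a5 and Col4a6 on the X chromosome, overlapped in both chains. Col4a5 stood at 357 and 273 CPM against 358 and 286 CPM, and Col4a6 at 207 and 138 CPM against 229 and 165 CPM. Raw counts of Col4a1 were 1.5 to 1.84 times those of Col4a2 in every library.

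The 5 collagens that lay higher at an unadjusted p under 0.05 came from classes other than the fibril-forming, collagen VI and collagen IV chains. Col8a1, a short-chain network collagen, stood at 157 and 177 CPM under control siRNA and at 250 and 266 CPM under SPT6 siRNA, a log2 difference of 0.63 ± 0.17 (edgeR adjusted p = 0.327). It was the only one of the 8 higher members with a mean of 50 CPM or more. Col7a1 (chromosome 9, 108953586 to 108984875, plus strand), which builds the anchoring fibrils under epithelia, stood at 4.06 and 5.64 CPM against 12 and 25.8 CPM, a log2 difference of 1.96 ± 0.41 (edgeR adjusted p = 0.291). Col17a1, a transmembrane collagen of hemidesmosomes, stood at 4.29 and 4.75 CPM against 8.46 and 18.2 CPM (1.56 ± 0.40). None of these 3 overlapped. Without replicate 2 of the SPT6 IFN-beta group the difference of Col7a1 was 1.30 and that of Col17a1 0.90. Of the 6 epithelial markers, Epcam and Krt5 were at 0 counts, and Cdh1, Krt14, Krt8 and Krt18 had 32, 16, 9 and 3 counts over all libraries. Krt8 stood at 0.151 and 0 CPM against 0.306 and 0.261 CPM, and the sum of the 6 at 0.828 and 0.712 CPM against 0.815 and 1.30 CPM, which overlapped. Their part in the values of Col7a1 and Col17a1 was not tested.

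Fibril-associated collagens were mixed, with 3 of 5 above 0. Col20a1 stood at 8.73 and 4.27 CPM against 13.6 and 27.4 CPM (log2 difference 1.67 ± 0.47). Col9a3 stood at 3.39 and 2.79 CPM against 5.81 and 6.61 CPM (1.01 ± 0.32). Both were higher in each SPT6 siRNA library with IFN-beta. Col22a1 stood at 2.11 and 1.01 CPM against 3.36 and 2.69 CPM (0.97 ± 0.46). The most abundant members of this class lay below 0, Col16a1 at -0.14 ± 0.19 and Col12a1 at -0.33 ± 0.27. Without replicate 2 of the SPT6 IFN-beta group the difference of Col20a1 was 1.06.

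Among laminin chains of the common fibroblast trimers, Lamc1, Lamb1 and Lamb2 showed small differences and Lama4 a larger one. Lamc1 stood at 454 and 433 CPM under control siRNA and at 495 and 515 CPM under SPT6 siRNA (log2 difference 0.19 ± 0.17). Lamb1 stood at 417 and 556 CPM against 430 and 537 CPM (-0.0088 ± 0.22). Lamb2 stood at 178 and 114 CPM against 153 and 129 CPM (-0.053 ± 0.24). The groups overlapped for both beta chains and not for Lamc1. Lama4, the leading alpha chain, stood at 293 and 241 CPM against 232 and 133 CPM (-0.55 ± 0.28), without overlap.

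Integrin chains showed no common direction, with 10 of 20 below 0 and a median of -0.075. The main beta chain Itgb1 stood at 1024 and 992 CPM under control siRNA and at 1059 and 968 CPM under SPT6 siRNA (log2 difference 0.0084 ± 0.19). Itga5, its partner in the fibronectin receptor, stood at 205 and 258 CPM against 178 and 287 CPM (0.0065 ± 0.26). Both overlapped fully between the siRNAs. Itgav, the alpha chain of vitronectin receptors, stood at 323 and 338 CPM against 343 and 467 CPM (0.29 ± 0.21).

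Of the alpha chains that bind laminin, all 3 compared lay above 0, against 6327 of 13185 genes tested. Itga7, the muscle laminin receptor chain, stood at 0.903 and 1.25 CPM under control siRNA and at 3.46 and 8.34 CPM under SPT6 siRNA, a log2 difference of 2.44 ± 0.53 (edgeR adjusted p = 0.291). Without replicate 2 of the SPT6 IFN-beta group the difference of Itga7 was 1.67. Itga6 was at 0.54 ± 0.31 and Itga3, near 0, at 0.053 ± 0.43. Of the alpha chains that bind collagen, Itga1 was at -0.79 ± 0.41, Itga11 at -0.78 ± 0.93 and Itga10 at 0.65 ± 0.50. Exons of another gene model cover 33.5% of the exonic bases of Itga10, so its counts are uncertain. Itga8, an RGD-binding chain, stood at 37.5 and 37.6 CPM against 24.1 and 25.8 CPM, a log2 difference of -0.59 ± 0.18 (edgeR adjusted p = 0.35).

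Leukocyte-type chains were low in level. Itgb7 (chromosome 15, 102215995 to 102231944, minus strand), the beta partner of Itga4 and Itgae, stood at 3.99 and 7.53 CPM under control siRNA and at 14.7 and 27.6 CPM under SPT6 siRNA. The groups did not overlap, and its log2 difference was 1.87 ± 0.43 (edgeR adjusted p = 0.309). Its alpha partners did not lie higher: Itga4 was at -0.66 ± 0.45 and Itgae at -0.22 ± 0.45. Itgb2 stood at 3.76 and 1.54 CPM against 9.17 and 3.91 CPM (1.31 ± 0.58). The leukocyte and macrophage marker sum stood at 8.96 and 7.95 CPM against 15.3 and 18.4 CPM. Of that sum, Cd68 made 2.71 and 2.20 against 7.74 and 9.91 CPM. Other markers were mixed: Cd14 was at 0.42 ± 0.31, Csf1r at 0.87 ± 0.49 and Lyz2 at -0.57 ± 1.25. Ptprc, Emr1 and Fcer1g had 9, 1 and 10 counts over all libraries, and Tyrobp had 0. The part of these markers in the values of Itgb7 and Itgb2 was not tested.

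Between the siRNAs, markers of smooth muscle and myofibroblasts lay in the same direction as most fibril-forming collagens. Their sum stood at 1547 and 684 CPM under control siRNA and at 595 and 343 CPM under SPT6 siRNA, both with IFN-beta, with Acta2 at a log2 difference of -1.29 and Tagln at -1.05. The fibroblast sum stood at 7058 and 6730 CPM against 5357 and 4273 CPM. Vim, S100a4, Pdgfrb, Thy1, Prrx1 and Fap had log2 differences of -0.69 to -0.42. Pdgfra (0.13 ± 0.45) and Twist1 (0.11 ± 0.24) did not lie lower. In untreated cells the muscle marker sum stood at 362 CPM under control siRNA and 269 CPM under SPT6 siRNA. With IFN-beta under control siRNA that sum was higher, and Acta2 made 1310 and 563 CPM of it. Acta2 was at a log2 difference of 1.60 ± 0.61 and Tagln at 1.81 ± 0.54, neither called (edgeR adjusted p = 0.596 and 0.495). Cnn1 was at 0.62 ± 0.87 and Myh11 at -0.30 ± 0.75. The median of the fibril-forming collagens in that comparison was 0.054. The part of these markers in the collagen values was not tested, and in bulk RNA fewer cells of a type and less RNA per cell cannot be told apart.

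The untreated libraries gave 1 comparison without replicates and so no test. Past a 2-fold difference, 5 members were higher with SPT6 siRNA (8.62%, against 3.13% of all genes tested) and 1 lower (1.72%, against 1.41%). The higher ones were Itgb2, Col7a1, Col11a2, Itga7 and Itgb7, and the lower one was Itga8. Col7a1 stood at 4.93 CPM under control siRNA and 15.1 CPM under SPT6 siRNA, and Itgb7 at 5.09 and 14.9 CPM. Itga8 stood at 44.1 and 21.2 CPM. Col11a2 was the 1 fibril-forming chain past 2-fold, at 4.11 and 12.6 CPM. Col11a1 at 112 and 62.0 CPM, Col27a1 at 63.0 and 38.2 CPM and Col1a1 at 1553 and 1064 CPM lay lower by less than 2-fold, as did the collagen VI chain Col6a2 at 436 and 280 CPM. Col1a2 stood at 5130 and 4085 CPM, Col3a1 at 1481 and 1271 CPM and Col6a1 at 1132 and 849 CPM. All 7 of the chains from Col11a1 to Col6a1 lay lower, the direction they had with IFN-beta. Some of these 7 were named for a small p between the siRNAs with IFN-beta, so the count only describes them. In untreated cells 21 of 28 compared collagens lay below 0, against 6880 of 13185 genes tested. In log2 CPM, Col5a1 (-0.074) and Col5a2 (-0.0072) lay near 0 and Col5a3 was at -0.87. Of the collagens higher with IFN-beta, Col8a1 stood at 168 and 247 CPM, Col17a1 at 5.17 and 6.95 CPM, Col20a1 at 11.3 and 22.4 CPM and Col9a3 at 1.97 and 1.92 CPM, so Col9a3 alone of these 4 did not lie higher in untreated cells. Itga7 stood at 1.23 and 3.83 CPM. Lamc1 stood at 438 and 517 CPM, Lamb1 at 349 and 381 CPM, Lama4 at 305 and 250 CPM and Itgb1 at 728 and 822 CPM, all within 2-fold. The median of the 58 members was -0.088 and that of all genes -0.019.

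When libraries with the same number were set side by side, 23 of 58 members (39.7%) were lower with SPT6 siRNA in all 3 sets, against 28.3% of all genes tested. They included 6 fibril-forming chains, all 3 compared collagen VI chains, Col4a1 and Col4a2. Higher in all 3 sets were 14 members (24.1%), against 25.8% of all genes. Within IFN-beta, 16 members (27.6%) had both SPT6 siRNA libraries below both control libraries, against 21.3% of all genes, and 14 (24.1%) had both above, against 22.7%. The higher share was therefore near that of all genes, and the lower share was somewhat above it.

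**Figure D3:**
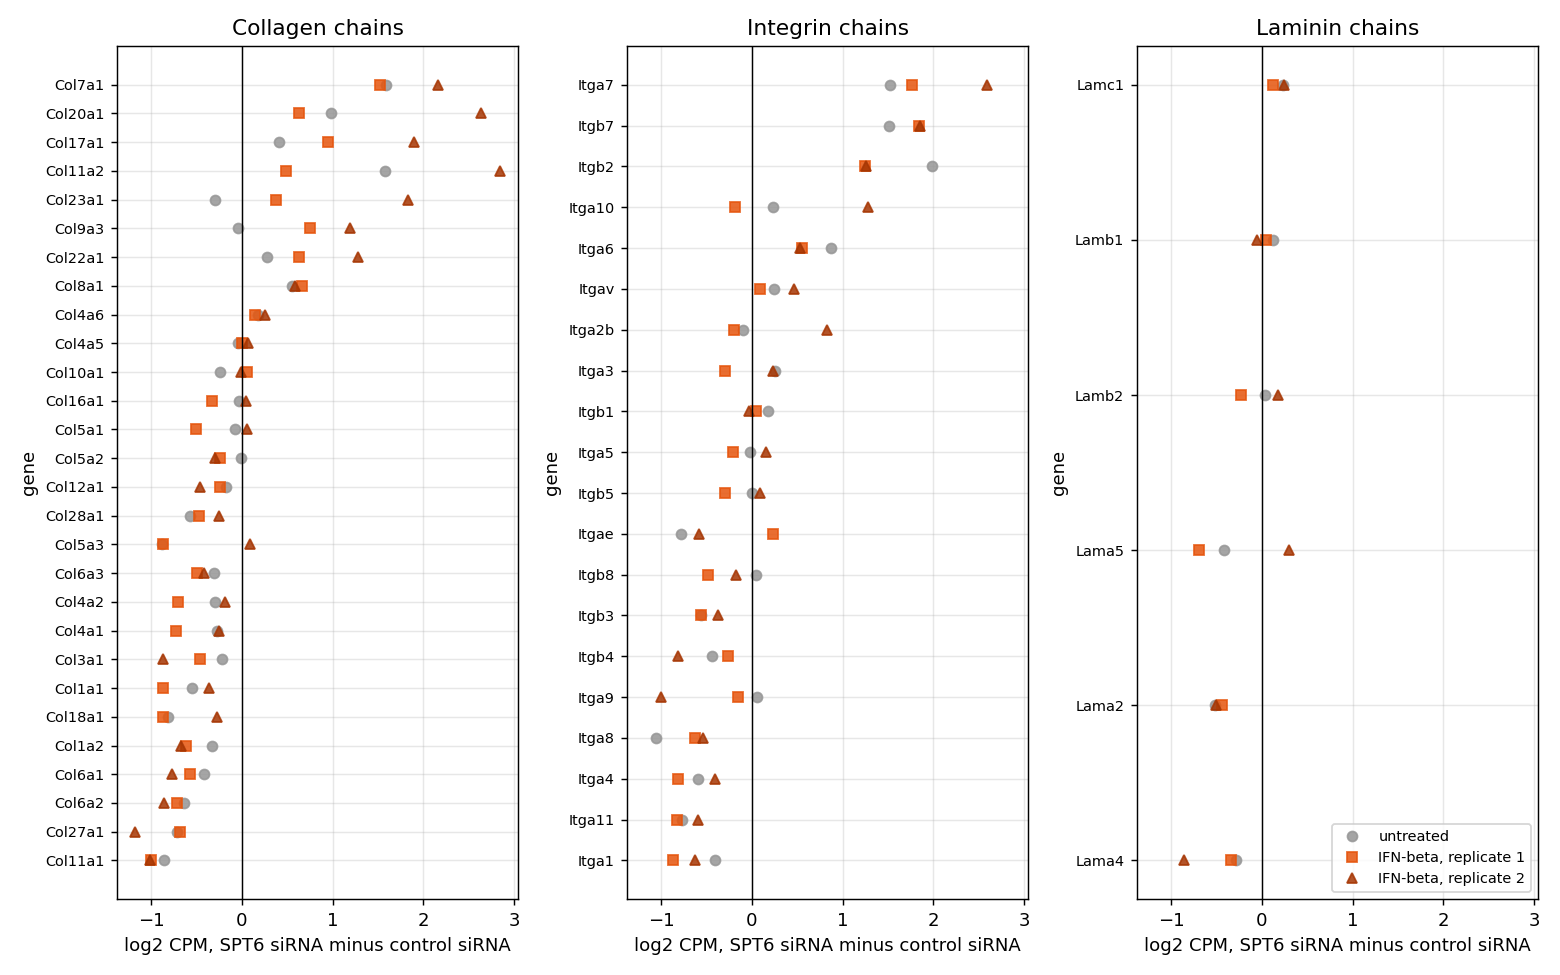
Difference in log2 CPM, SPT6 siRNA minus control siRNA, for compared collagen, integrin and laminin chains in the untreated libraries and in replicates 1 and 2 with IFN-beta. Points left of 0 are lower with SPT6 siRNA: Col11a1 and the collagen I and VI chains lie left of 0 in all 3 sets, while Col7a1, Col8a1, Itga7 and Itgb7 lie right of 0 in all 3.

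Abundance was set beside direction. Of the 26 members with a mean of 50 CPM or more, 8 (30.8%) were above 0 with SPT6 siRNA, against 44.1% of the 4494 genes of that level. Of these members 13 (50%) were lower in all 3 same-numbered sets, against 32% of such genes. Of the 19 members from 5 to 50 CPM, 9 (47.4%) were above 0, against 43.7% of the 6001 genes of that level. Of these, 7 (36.8%) were lower in all 3 sets, against 31.8%, and 6 (31.6%) higher, against 23.9%. Of the 13 members under 5 CPM, 8 (61.5%) were above 0, against 64.1% of the 2690 genes of that level. Of these, 3 (23.1%) were lower in all 3 sets, against 14.4%, and 3 (23.1%) higher, against 29.7%.

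IFN-beta was compared with untreated cells for each siRNA (2 libraries against 1). With control siRNA, edgeR called 0 members against 0.137% of all genes at the adjusted threshold. At an unadjusted p under 0.05, 3 of 58 members (5.17%) lay higher with IFN-beta, against 5.29% of all genes, and 0 lay lower, against 2.94%. The members' median was -0.087, beside -0.0053 for all genes. DESeq2 and limma-voom called 0 members too. The 3 members were all integrin chains, but the numbers depended on 1 library. Without replicate 1 of the control IFN-beta group 2 members lay higher and 8 lower at that p, and without replicate 2 of that group 1 lay higher and 0 lower.

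Itga6, a laminin receptor chain, stood at 55.7 CPM without and at 95.6 and 152 CPM with IFN-beta under control siRNA, a log2 difference of 1.15 ± 0.40 (edgeR adjusted p = 0.537). With SPT6 siRNA it stood at 102 CPM and at 140 and 220 CPM (0.81 ± 0.39). Itga6 lay higher with IFN-beta under either siRNA, and higher with SPT6 siRNA in each same-numbered set. Itga5 stood at 122 CPM without and at 205 and 258 CPM in control cells (0.92 ± 0.33), and at 121 CPM and at 178 and 287 CPM under SPT6 siRNA (0.95 ± 0.34). All 4 IFN-beta libraries lay above both untreated ones for Itga5. Both untreated libraries are numbered replicate 1, and with IFN-beta replicate 2 lay above replicate 1 for both chains under either siRNA. Without replicate 2 of the control IFN-beta group the response under control siRNA was 0.75 for Itga5 and 0.78 for Itga6. Without replicate 2 of the SPT6 IFN-beta group the response under SPT6 siRNA was 0.55 for Itga5 and 0.43 for Itga6.

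Itgb8 and Itgb3 are beta chains that pair with Itgav. Itgb8 stood at 9.61 CPM without and at 20.6 and 14.4 CPM with IFN-beta under control siRNA (0.86 ± 0.33), and at 9.95 CPM and at 14.7 and 12.7 CPM under SPT6 siRNA (0.46 ± 0.34). Itgb3 stood at 8.05 CPM and at 12.6 and 15.8 CPM in control cells (0.82 ± 0.35), and at 5.39 CPM and at 8.56 and 12.2 CPM under SPT6 siRNA (0.94 ± 0.37). Without replicate 1 of the control IFN-beta group the difference of Itgb8 under control siRNA was 0.57. Both chains were higher in every IFN-beta library than in the untreated library of the same siRNA. Itgb1 was at 0.47 ± 0.24 and 0.30 ± 0.24, and Itgav at 0.48 ± 0.26 and 0.53 ± 0.26. Among chains nearest to a lower call in control cells, Itgae stood at 3.20 CPM and at 1.28 and 1.90 CPM (-0.997 ± 0.50) and Col22a1 at 3.53 CPM and at 2.11 and 1.01 CPM (-1.19 ± 0.54). Col22a1 was at -1.81 without replicate 1 of the control IFN-beta group and at -0.74 without replicate 2. Under SPT6 siRNA, Itgae stood at 1.80 CPM and at 1.53 and 1.22 CPM, and Col22a1 at 4.31 CPM and at 3.36 and 2.69 CPM.

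**Figure D4:**
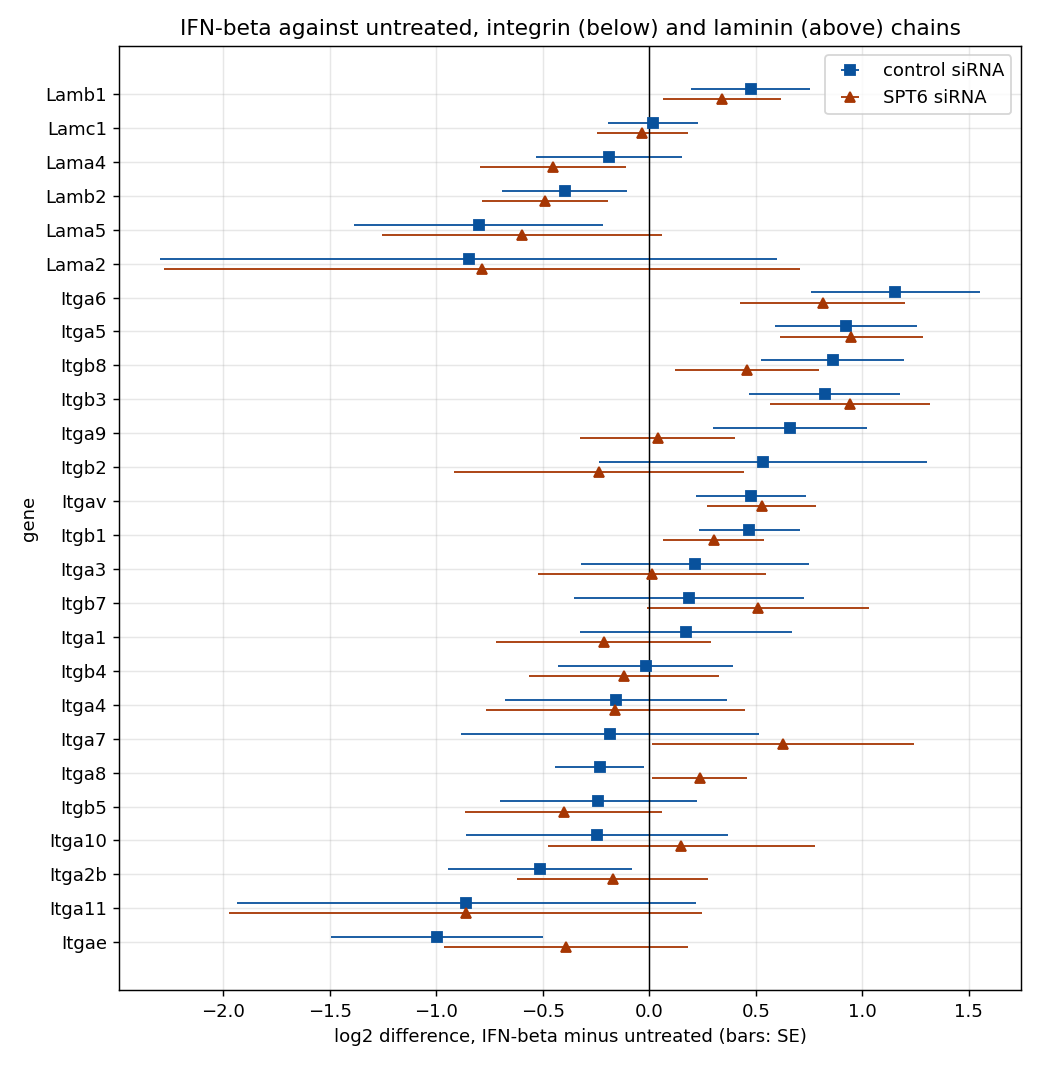
Log2 difference of IFN-beta against untreated for integrin and laminin chains, with control siRNA (squares) and SPT6 siRNA (triangles), bars showing the SE. Itga6, Itga5, Itgb8 and Itgb3 lie furthest right with control siRNA. Bars of the 2 siRNAs overlap for each of these 4 chains.

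With SPT6 siRNA, edgeR again called 0 members, against 0.0455% of all genes. At an unadjusted p under 0.05, 4 members (6.9%) lay higher with IFN-beta, against 3.84% of all genes, and 0 lay lower, against 2.01%. They included Col9a3, Itga5 and Itgb3, and DESeq2 and limma-voom called 0. Without replicate 1 of the SPT6 IFN-beta group 7 members lay higher and 4 lower, and without replicate 2 of that group 1 lay higher and 0 lower. The members' median was -0.041 and that of all genes 0.0050. Col9a3 stood at 1.92 CPM without and at 5.81 and 6.61 CPM with IFN-beta, a log2 difference of 1.69 ± 0.45 (edgeR adjusted p = 0.637). Col11a1, already lower with SPT6 siRNA in untreated cells, stood at 62.0 CPM without and at 46.7 and 34.9 CPM with IFN-beta (-0.60 ± 0.28). Under control siRNA it also lay lower with IFN-beta, at 112 CPM without and at 93.5 and 70.5 CPM (-0.45 ± 0.27). The difference between these 2 responses was -0.15 ± 0.40.

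The difference between the responses was tested as the response with SPT6 siRNA minus that with control siRNA. No member passed the adjusted threshold in edgeR (0% of all genes), and DESeq2 and limma-voom called 0. At an unadjusted p under 0.05, 1 member (1.72%) had a higher response with SPT6 siRNA, against 0.296% of all genes, and 0 had a lower one, against 0.0834%. Among the members named here, Col9a3 was at 1.05 ± 0.61 and Itga8 at 0.47 ± 0.31, both with an edgeR adjusted p of 1. Without replicate 2 of the SPT6 IFN-beta group the number of members was 0.

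Replicates of 1 group differed widely for a few chains, and the same way with both siRNAs. Past a 2-fold difference between replicates with each siRNA were 3 of 58 members (5.17%), against 2.86% of all genes. Lama2, the muscle laminin alpha chain, stood at 31.4 and 4.98 CPM under control siRNA and at 23.1 and 3.48 CPM under SPT6 siRNA. Itga11, a collagen receptor chain of fibroblasts, stood at 52.1 and 12.8 CPM and at 29.4 and 8.43 CPM. Itgb2 was the third. For Lama2 and Itga11, replicate 1 with IFN-beta lay near the untreated libraries (Lama2 32.5 and 22.8 CPM, Itga11 58.6 and 34.3 CPM) and replicate 2 far below, so their comparisons have errors of about their own size or more.

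Other genes of matrix assembly, partners, turnover and adhesion were read from a list of 66 tested genes. In edgeR none passed the adjusted threshold between the siRNAs with IFN-beta. At an unadjusted p under 0.05, 3 lay higher (4.55%) and 5 lower (7.58%), against 7.36% and 4.31% of all genes. The median was -0.21, beside -0.017 for all genes, and 46 of 66 were below 0, against 6858 of 13185 genes tested. Without replicate 1 of the control IFN-beta group the median was 0.014. The lower ones were Serpinh1, the collagen chaperone, Fbn1 of microfibrils, the protease inhibitors Timp1 and Timp3, and Lims1 of integrin adhesions. Timp3 had the largest log2 difference of these, at -0.94 ± 0.23. The higher ones were Plod2, a collagen lysyl hydroxylase, Loxl4, a crosslinking oxidase, and Timp2. Of the 15 matrix partners 13 were below 0, and of the 26 collagen processing genes 17.

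In the response to IFN-beta, 9 of the 66 lay higher at an unadjusted p under 0.05 with control siRNA and 4 with SPT6 siRNA, and none was called. These were 13.6% and 6.06%, against 5.29% and 3.84% of all genes, so the second lay nearer to the share of all genes. Timp1, Thbs1 and Fermt2, an integrin activator, were in both sets. Timp1 was at 1.41 ± 0.23 and 1.16 ± 0.23, and Thbs1 at 1.01 ± 0.26 and 1.06 ± 0.26.

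The 5 genes whose log2 CPM followed Col1a1 most closely over the 6 libraries included Fat4, Stat5a, Rwdd3 and Lrrc16b, with Pearson's r from 0.989 to 0.994. Among members, Col11a1 (0.953), Col18a1 (0.952) and Col6a2 (0.907) came closest and Itgb7 (-0.872) was the most opposite. These are descriptions over 6 libraries that share siRNA, treatment and depth.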

How the data were processed

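RNA of NIH3T3 cells was sequenced in 6 libraries, and group and replicate number were taken from the labels. The authors deposited raw read counts per gene symbol. Builds mm10 and GRCm38 and the tools DESeq2, HTSeq 0.6.1p1 and TopHat2 2.1.0 are listed, with no role, per the submitters' processing notes. The counting's annotation and strand setting are not given in the sources used here. Overlapping genes may therefore share reads. Of the 58 compared members, 39 share no exonic base with another GENCODE gene, and 2 (Itga10 and Itgb1bp1) share over 10%. The 5 lines that name no gene were left out, and 32.9% to 38% of all lines' counts were in genes.

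In R 4.3.3, genes were kept by filterByExpr (count minimum 10) and scaled by TMM. They were tested with edgeR 4.0.16 (glmQLFit, robust; glmQLFTest) on 4 group means over all libraries, with Benjamini-Hochberg adjustment over 13185 genes. Only the IFN-beta groups supply residual degrees of freedom (2), and each lone untreated library is taken to vary as they do. P-values reflect no more than the spread of these libraries, part of which may be technical. Each standard error is the log2 difference divided by the square root of its F statistic. The untreated comparison took log2 CPM, prior count 2. Same-group replicates were not duplicates (chi-square per degree of freedom 39.6 and 35). Exon lengths and positions came from GENCODE for GRCm38 and promoters from RefSeq. The limit of 3 counts covers counting error only. The script was tested on simulated counts.

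Named with values by library were the 12 members with the smallest p between siRNAs, the 6 with the smallest p in each response, and the 3 highest of each family per kilobase with their chain partners. Lama2, Itga11, Itgb2 and others given beside them were picked after their values were seen. Some genes that the rule names are not reported here, in text or figures, but stay in the counts. The members and gene lists were chosen with earlier results of these data known. Alternatives were DESeq2 1.42.0, limma-voom (limma 3.58.1), DESeq2's size factors, scaling by library size alone, other count filters, a replicate block, only the IFN-beta libraries, and leaving out each IFN-beta library.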

Additional observations from a re-analysis of the deposited data

How the results depend on the processing

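Few libraries stood behind each call (2 per group with IFN-beta, 1 per untreated group), and the number of calls changed with the method. Between the siRNAs with IFN-beta, members called were 0 in edgeR and 3 with DESeq2 (5.17%, against 0.44% of all genes). Without a count filter 1 was called (1.72%, against 0.372%). A replicate block gave 27 (46.6%), beside 2638 of all genes (20%). The labels give the number alone, with 2 shared numbers, and do not say that it marks a shared culture or day; replicate 2 minus replicate 1 correlated at 0.56 between the siRNAs across all genes. With the replicate block, members at an unadjusted p under 0.05 were 33 between siRNAs, 14 and 12 in the responses with control and SPT6 siRNA, and 3 in the difference of responses, beside 4182, 2438, 1839 and 478 of all 13185 genes; members called in the responses were 6 (10.3%) and 4 (6.9%), against 7.26% and 4.13% of all genes; and the medians of the responses were 0.0079 and 0.0094. Without a count filter 5 members passed the unadjusted threshold in the control response. With library size only, the medians were -0.0992 between siRNAs, -0.177 and -0.0935 in the responses and -0.121 for the other matrix genes, and the median of all genes moved by less than 0.1. The cause of these differences was not tested.

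Leaving out each IFN-beta library in turn gave ranges of -0.279 to -0.0317 for the members' median between siRNAs, -0.252 to 0.0139 for the other matrix genes, -0.185 to -0.0487 and -0.0574 to 0.00398 for the responses with control and SPT6 siRNA, and -0.0903 to 0.115 for their difference. Numbers at an unadjusted p under 0.05 ranged over 10 to 19, 1 to 10, 1 to 11 and 0 to 2. Signs near 0 turned for Lamb1 (0.0772 with library size only, 0.0091 with the filter on summed counts, 0.0035 with only the IFN-beta libraries; leaving 1 out, -0.188 to 0.215), Lamb2 (0.0297 with library size only; -0.342 to 0.319), Itga5 (-0.025 with limma-voom, -0.0107 without a filter, -0.023 with the replicate block; -0.382 to 0.298) and Itgb1 (-0.0119 without a filter; -0.0707 to 0.0667). No untreated library could be left out. Depth limits the 13 compared members that averaged under 5 CPM.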
